A study of Mus musculus with 12 samples.

Results

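The genes described here are 6 regulators of messenger RNA decay, taken by symbol from the gene table of the count matrices: Zfp36, Zfp36l1, Zfp36l2, Zc3h12a, Btg1 and Btg2. They are 6 of 31053 genes in the matrices. The rule uses symbols and no threshold on a measured value, but the list was drawn up with earlier results of these data known. Zfp36 (tristetraprolin), Zfp36l1 and Zfp36l2 encode zinc finger proteins that bind AU-rich elements in the 3′ untranslated region of messages such as those of cytokines and immediate early genes, and bring in the CCR4-NOT complex, which shortens the poly(A) tail. Zc3h12a encodes Regnase-1, an endonuclease that cuts stem-loops in the messages of inflammatory genes. Btg1 and Btg2 encode antiproliferative proteins that bind the deadenylase subunits of CCR4-NOT. In macrophages, Zfp36 is known as an immediate early gene that is switched on by the same stimuli as its targets, and the p38 kinase and MK2 control the activity of its protein.

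The series measured myeloid cells of the adult mouse brain by droplet single-cell RNA sequencing (10X Genomics 3′ chemistry, version 2) after the brain had been taken apart in 4 ways. Each of the 12 libraries came from the whole brain of 1 male C57BL/6J mouse at postnatal day 90, so the replicate is the animal, and live CD45+ and CD11b+ cells were sorted. DNC-NONE brains (replicates 1, 2 and 3) were broken up on ice in a Dounce homogenizer, and ENZ-NONE brains (replicates 4, 5 and 6) by warm enzymatic digestion, both without inhibitors. DNC-INHIB (replicates 4, 5 and 6) and ENZ-INHIB (replicates 1, 2 and 3) were the same procedures with actinomycin D and triptolide, which block transcription, from the perfusion on, and with anisomycin, which blocks translation, added in the later buffers. All 4 groups had the perfusion, Percoll gradient and sort in common, and the blockers of transcription and translation cannot be told apart in this design. DNC-NONE 1 and 2, DNC-INHIB 4, ENZ-NONE 4 and 5 and ENZ-INHIB 1 were labelled batch 1, and the other 6 libraries batch 2.

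After filtering, 18826 of 28426 deposited cells remained, with 853 to 2185 cells and 1059783 to 3233159 unique molecular identifiers (UMIs) per library. Between 91.1% and 96.0% of the cells of each library were microglia-like by their markers, in keeping with the label. Summed neutrophil markers ranged from 0 to 2677 CPM (counts scaled to 1000000 UMIs of the kept cells of a library) and were highest in DNC-NONE 3 and 2. Their part in the results was not tested. Of the kept cells, 472 (2.51%) carried a barcode that also occurred in another library, with at most 12 shared by any pair. A pair of libraries stood apart from their groups. DNC-NONE 1 had the highest Zfp36 of the undigested brains, and ENZ-NONE 6 the highest Fos and Dusp1, with 20.8% of its cells positive for both against 4.97% and 5.19% in ENZ-NONE 4 and 5. Values without 1 or both of these libraries are given beside the results they move most. Sequencing measures the level of these messages, so a fall under a transcription block cannot tell lower synthesis from faster decay.

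The sequences below are given because the proteins of these genes act on letters of this kind, and because some of these genes carry them in their own messages. The heptamer TATTTAT is the core of an AU-rich element. It was counted on the sense strand in the longest annotated 3′ untranslated region of each gene (GENCODE M21, GRCm38), and 27.5% of 20996 genes held at least 1 copy. Zfp36 held 3 in 774 bases, Zfp36l1 3 in 1835 bases and Zfp36l2 3 in 1822 bases, a number that 4.12% of all genes reached. Btg2 held 1 in 2199 bases, whereas Zc3h12a (856 bases) and Btg1 (4166 bases) held 0. The capitals mark the heptamer, with 10 bases on either side, read 5′ to 3′ on the strand of the gene. The copy shown for each Zfp36 family gene lies in the longer match TTATTTATT, found in 7.59% of genes.
Zfp36, chr7:28376952-28376978, minus strand, 590 bases after the stop codon: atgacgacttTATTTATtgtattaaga
Zfp36l1, chr12:80108168-80108194, minus strand, 1405 bases after the stop codon: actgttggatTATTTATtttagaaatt
Zfp36l2, chr17:84184915-84184941, minus strand, 822 bases after the stop codon: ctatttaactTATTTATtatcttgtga
Btg2, chr1:134077250-134077276, minus strand, 103 bases after the stop codon: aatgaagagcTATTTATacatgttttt

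Promoters of 5 of the 6 genes were present in the RefSeq table (GRCm38.p6), which held no entry for Zfp36l2. In the 250 bases before the start, both strands were searched for 6 motifs over 32851 promoters. Zfp36 held the CArG box, the site of serum response factor (1.47% of promoters). Btg2 held TGACGTCA, the cyclic AMP response element (1.55%), and Zfp36l1 and Btg1 held TATAAA (12.4%). TGAGTCA (4.46% of promoters), the NF-kB site (7.25%) and GCGTGGGCG (0.536%) were found in 0 of the 5 genes. A match describes the letters in this window, and no binding was measured. The start of Zfp36 in RefSeq lies inside the longer GENCODE span of the gene given further down, so its window precedes the RefSeq start only. The capitals mark the motif.
Zfp36, chr7:28379267-28379296, minus strand, 58 to 49 bases before the RefSeq start: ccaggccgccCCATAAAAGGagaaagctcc
Btg2, chr1:134079304-134079331, minus strand, 166 to 159 bases before the RefSeq start: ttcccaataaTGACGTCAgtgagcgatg
Zfp36l1, chr12:80113027-80113052, minus strand, 29 to 24 bases before the RefSeq start: caccaaatctTATAAAttgggctttg
Btg1, chr10:96616965-96616990, plus strand, 26 to 21 bases before the RefSeq start: tccgcagcccTATAAAatgagctgca

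All 6 genes passed the low-count filter. Over the 12 libraries the kept cells held 3593 UMIs of Zfp36 (38 to 1728 per library), 8722 of Zfp36l1 (264 to 1419), 12201 of Zfp36l2 (501 to 1542), 321 of Zc3h12a (6 to 50), 12290 of Btg1 (350 to 2514) and 8577 of Btg2 (207 to 2209). Zc3h12a was therefore measured from few molecules. Levels below are CPM, the UMIs of a gene scaled by all UMIs of the kept cells of the library, and are compared between libraries, not between genes. Genes are annotated on the opposite strand over Zfp36 (Gm44710, 0 UMIs in kept cells), Zfp36l1 (Gm26669, 59 UMIs) and Zfp36l2 (AC132455.1, 0 UMIs), and whether the counting kept strands apart is not given in the sources used here. The processed pseudogenes Btg1-ps1 and Btg1-ps2 were at 0 UMIs.

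Zfp36 (ENSMUSG00000044786, chromosome 7, 28376784 to 28380253, GRCm38) differed most between the preparations. In ENZ-NONE its level was 249.8, 261.2 and 633.0 CPM (381 ± 218, SD, n = 3). The DNC-NONE libraries held 85.6, 35.9 and 37.7 CPM (53.1 ± 28.2), the DNC-INHIB libraries 34.7, 47.9 and 42.1 CPM (41.6 ± 6.60), and the ENZ-INHIB libraries 38.2, 33.5 and 40.9 CPM (37.6 ± 3.74). All 3 digested brains without inhibitors lay above all 9 other libraries, and the other 3 groups overlapped. Against ENZ-INHIB the log2 fold change was 3.40 (SE 0.49), and edgeR's quasi-likelihood test called it (adjusted p = 0.0340, Benjamini-Hochberg over 9882 genes). Against DNC-INHIB it was 3.25 (SE 0.48, adjusted p = 0.0207), also called. Against DNC-NONE it was 2.83 (SE 0.48), which edgeR did not call (adjusted p = 0.0587). A call here needs an adjusted p under 0.05 and a log2 fold change beyond 0.58 in either direction.

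These calls changed with the estimate of the spread. With 1 prior spread for all genes, edgeR called Zfp36 in all 3 comparisons, against DNC-NONE with an adjusted p of 0.000115, and so did DESeq2 (adjusted p = 3.32e-07). Without ENZ-NONE 6 the log2 fold change against DNC-NONE was 2.19 and was called (adjusted p = 0.0179). Over the removal of each library in turn, the adjusted p of Zfp36 ran from 0.0179 to 0.205 against DNC-NONE, from 0.00842 to 0.273 against ENZ-INHIB and from 0.0076 to 0.124 against DNC-INHIB. Within batch 1 the mean level was 255 CPM in ENZ-NONE (n = 2), 60.7 in DNC-NONE (n = 2), 34.7 in DNC-INHIB (n = 1) and 38.2 in ENZ-INHIB (n = 1). Zfp36 is itself a member of both activation lists of the study, of which the myeloid list was chosen on these samples. Its direction and calls in ENZ-NONE are therefore not independent of that choice.

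Btg2 (ENSMUSG00000020423, chromosome 1, 134075170 to 134079120) showed the same order at a smaller size. It was at 478.4, 429.9 and 809.2 CPM in ENZ-NONE (572 ± 206, n = 3), and at 369.8, 195.3 and 203.1 CPM in DNC-NONE (256 ± 98.5). DNC-INHIB held 209.3, 228.8 and 229.2 CPM (222 ± 11.4) and ENZ-INHIB 172.9, 211.1 and 196.8 CPM (194 ± 19.3). ENZ-NONE again lay above all 9 other libraries, with DNC-NONE 1 the nearest. Zfp36 and Btg2 were the 2 members with this pattern, which 0.729% of the 9882 tested genes had. The log2 fold change of Btg2 was 1.20 (SE 0.32, adjusted p = 0.291) against DNC-NONE, 1.61 (SE 0.32, adjusted p = 0.178) against ENZ-INHIB and 1.42 (SE 0.32, adjusted p = 0.122) against DNC-INHIB by edgeR, and none was called. DESeq2 called all 3 (adjusted p = 0.0268, 0.000169 and 0.00164), as did edgeR with 1 prior spread (0.0151, 0.000857 and 0.00209). Btg2 is in the study's list of activation genes for all brain cells.

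**Figure D1:**
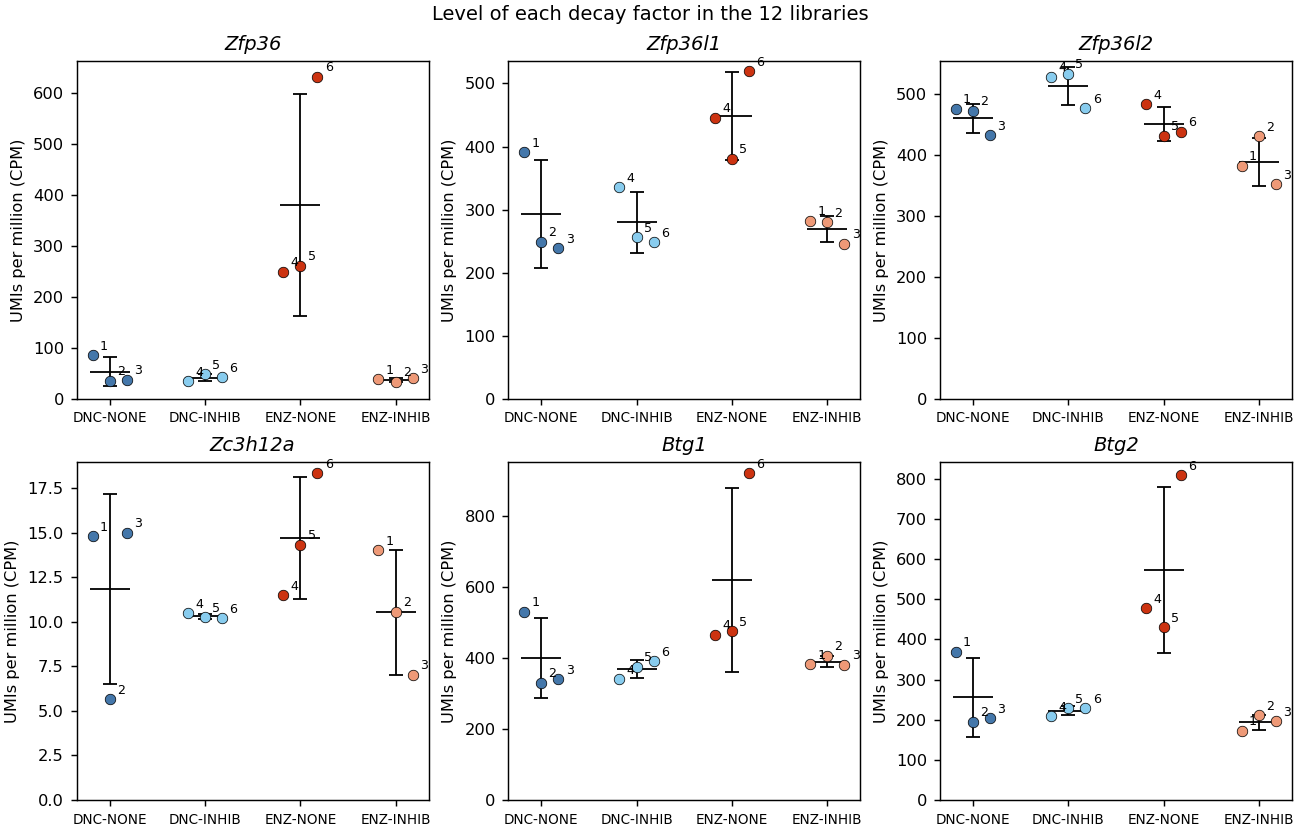
Level of each of the 6 genes in CPM (vertical axis) in every library, grouped by preparation on the horizontal axis. Points are libraries and bars give the mean ± SD (n = 3). Zfp36 and Btg2 are higher in all 3 ENZ-NONE libraries than in the other 9. Zfp36l2 is lower in all 3 ENZ-INHIB libraries than in the other 9, by a small margin (431.2 CPM in ENZ-INHIB 2, 431.8 CPM in ENZ-NONE 5).

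Zfp36l1 (ENSMUSG00000021127, chromosome 12, 80107754 to 80113013), the paralog of Zfp36 best known from development and lymphocytes, was at 445, 380 and 520 CPM in ENZ-NONE (449 ± 69.8). It was at 391, 249 and 239 CPM in DNC-NONE (293 ± 85.1), where replicate 1 lay above ENZ-NONE 5, so that these groups overlapped. DNC-INHIB libraries held 335, 256 and 248 CPM (280 ± 48.3) and ENZ-INHIB libraries 282, 280 and 246 CPM (269 ± 20.4). ENZ-NONE lay above all 6 libraries with inhibitors, a pattern that 4 of the 6 members (Zfp36, Zfp36l1, Btg1 and Btg2) and 1.32% of tested genes had. The log2 fold change of ENZ-NONE was 0.65 (SE 0.20, adjusted p = 0.354) against DNC-NONE, 0.78 (SE 0.20, adjusted p = 0.396) against ENZ-INHIB and 0.73 (SE 0.20, adjusted p = 0.186) against DNC-INHIB, with no call by edgeR. DESeq2 called all 3 (adjusted p = 0.0166, 0.000769 and 0.00164), as it did for Zfp36 and Btg2, so that it called 3 of 6 members in each of these comparisons, where it called 0.536%, 0.405% and 0.688% of all genes. EdgeR with 1 prior spread called the last 2 (0.0460 and 0.0397), and thus 2, 3 and 3 of 6 members against 0.617%, 0.385% and 0.799% of all genes. Without DNC-NONE 1 the difference from DNC-NONE was 0.93 and was called (adjusted p = 0.00211).

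Btg1 (ENSMUSG00000036478, chromosome 10, 96617006 to 96622809) is known for its high level in resting cells. The size of its difference depended on ENZ-NONE 6. ENZ-NONE held 466, 476 and 921 CPM (621 ± 260), against 531, 330 and 341 CPM in DNC-NONE (401 ± 113). DNC-INHIB held 341, 376 and 392 CPM (369 ± 25.9), and ENZ-INHIB 382, 407 and 381 CPM (390 ± 14.7). ENZ-NONE 6 lay far above every other library, and DNC-NONE 1 lay above ENZ-NONE 4 and 5. No comparison was called by edgeR or DESeq2, with log2 fold changes of ENZ-NONE of 0.68, 0.72 and 0.80 (SE 0.30) against DNC-NONE, ENZ-INHIB and DNC-INHIB. Without ENZ-NONE 6 these fell to 0.24, 0.28 and 0.37 (SE 0.16), also not called.

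Zfp36l2 (ENSMUSG00000045817, chromosome 17, 84183931 to 84187947) did not follow Zfp36. Its level was 484, 432 and 438 CPM in ENZ-NONE (451 ± 28.4) and 476, 473 and 433 CPM in DNC-NONE (461 ± 24.1), with a log2 difference of 0.01 (SE 0.09, adjusted p = 0.994). It was 529, 534 and 477 CPM in DNC-INHIB (513 ± 31.5) and 383, 431 and 352 CPM in ENZ-INHIB (389 ± 39.9). All 3 ENZ-INHIB libraries lay below all 9 others, a pattern found in 0.567% of tested genes. The margin was small, with 431.2 CPM in ENZ-INHIB 2 and 431.8 CPM in ENZ-NONE 5. All 3 DNC-INHIB libraries lay above DNC-NONE, which 5.05% of genes did. With 20 assignments of 3 against 3 libraries, such a share arises without any effect, so this order sets Zfp36l2 apart from no other gene. Between the 2 inhibitor groups the log2 fold change of ENZ-INHIB was -0.39 (SE 0.09), under the fold threshold and with an adjusted p of 0.0609 by edgeR. Over all alternatives run on this comparison the adjusted p ranged from 0.00536 to 0.379, and the fold stayed below the threshold in each. ENZ-NONE exceeded ENZ-INHIB by 0.25 (SE 0.09, adjusted p = 0.789).

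Zc3h12a (ENSMUSG00000042677, chromosome 4, 125118423 to 125127840) was at 11.5, 14.3 and 18.3 CPM in ENZ-NONE (14.7 ± 3.43) and at 14.8, 5.66 and 15.0 CPM in DNC-NONE (11.8 ± 5.33). It was at 10.5, 10.3 and 10.2 CPM in DNC-INHIB (10.3 ± 0.14) and at 14.0, 10.6 and 7.02 CPM in ENZ-INHIB (10.5 ± 3.49). ENZ-NONE overlapped DNC-NONE and ENZ-INHIB. Its lowest library (ENZ-NONE 4, 11.5 CPM, 25 UMIs) lay next to the highest of DNC-INHIB (DNC-INHIB 4, 10.5 CPM, 22 UMIs). EdgeR called no difference of this gene, although its unadjusted p against ENZ-INHIB was under 0.05. The part that the low counts play in this was not tested. The log2 fold change of ENZ-NONE was 0.27 (SE 0.28, adjusted p = 0.876) against DNC-NONE and 0.57 (SE 0.28, adjusted p = 0.993) against ENZ-INHIB.

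Set side by side, digestion without inhibitors against Dounce without inhibitors gave 0 of 6 members called by edgeR, where 0.465% of all tested genes were called. The median log2 fold change of the 6 was 0.67, against 0.00 over all tested genes. Digestion without against with inhibitors gave 1 of 6 called (Zfp36), against 0.293% of all genes, with a median of 0.75. These comparisons share the ENZ-NONE libraries and are not independent of each other. ENZ-NONE against DNC-INHIB, the extremes of the design, gave 1 of 6 (Zfp36) against 0.739%. The Dounce libraries without against with inhibitors gave 0 of 6 called, where 0% of all genes were called by edgeR and 1 gene by DESeq2. In the edgeR fit 435 of 9882 genes had an unadjusted p under 0.05, no more than that threshold gives without any difference. The log2 fold changes of the members there ran from -0.16 (Zfp36l2) to 0.42 (Zfp36, SE 0.53). Without DNC-NONE 1 the value of Zfp36 turned to -0.18, Zfp36l1 to -0.20, Btg1 to -0.14 and Btg2 to -0.16, none of them called. ENZ-INHIB against DNC-INHIB, which asks whether digestion still differs from Dounce when synthesis is blocked, gave 0 of 6 against 0.202%. The values of Zfp36 (-0.15, SE 0.54) and Btg2 (-0.19, SE 0.32) there were within their errors of 0. ENZ-INHIB against DNC-NONE also gave 0 of 6, against 0.172%.

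Whether the inhibitors changed the difference between digestion and Dounce was tested as an interaction. The interaction of Zfp36 was 2.98 on the log2 scale (SE 0.72, unadjusted p = 0.00306) and that of Btg2 1.39 (SE 0.45, unadjusted p = 0.0147), but by edgeR the adjusted p was 1.00 for both, and 0 of 6 members were called, against 0.0607% of all genes. DESeq2 called the interaction of Zfp36 (adjusted p = 0.00250, with 0.192% of all genes called), and so did edgeR with 1 prior spread (adjusted p = 0.0128, with 0.172%). Without DNC-NONE 1 and ENZ-NONE 6, 3 of 6 members (Zfp36, Zfp36l1 and Btg2) were called in each of the 3 comparisons of ENZ-NONE and in the interaction. The log2 fold changes against DNC-NONE were then 2.80, 0.79 and 1.21. This setting was chosen after seeing the data, and DNC-NONE 1 stood apart by Zfp36 itself, so its calls are not independent of the genes tested. In it, 0.72%, 0.406%, 0.893% and 0.254% of all genes were called against DNC-NONE, ENZ-INHIB, DNC-INHIB and in the interaction.

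**Figure D2:**
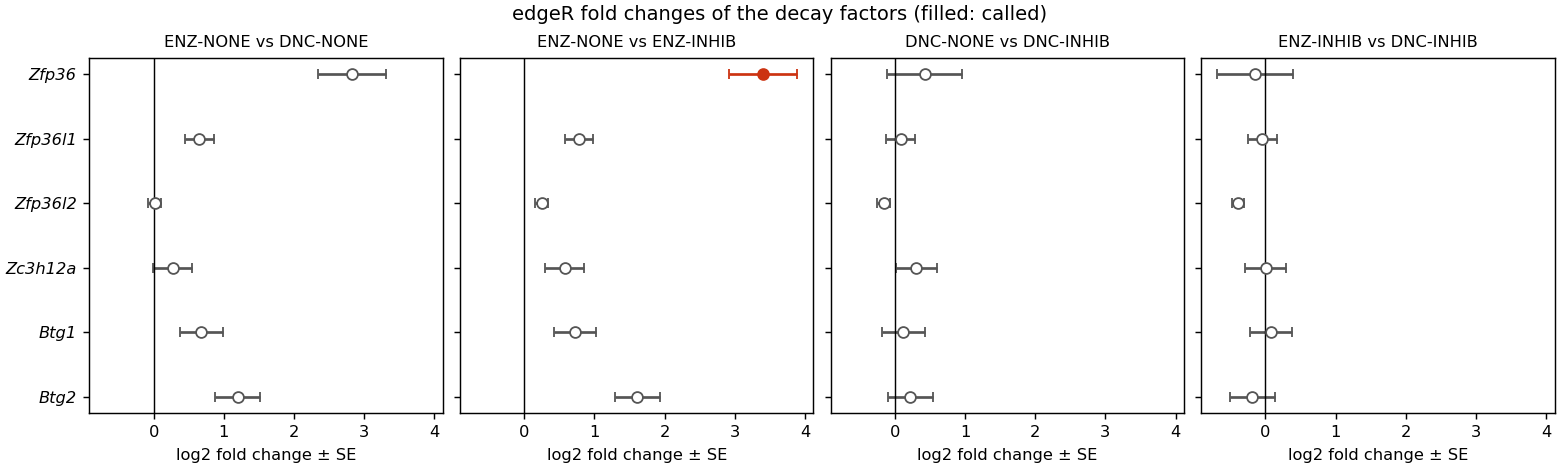
Log2 fold change of each gene (horizontal axis) with its standard error in 4 comparisons, from edgeR on summed UMIs of 12 libraries, with filled points for called values. Zfp36 has the largest values in both comparisons of ENZ-NONE (2.83 and 3.40), and the values of the 2 remaining comparisons lie between -0.39 and 0.42.

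The share of cells with at least 1 UMI was compared after each kept cell had been thinned to 1000 UMIs, so that depth did not set the share. Zfp36 was found in 17.6%, 19.4% and 36.3% of ENZ-NONE cells, against 7.83%, 3.52% and 4.08% in DNC-NONE. DNC-INHIB had 3.76%, 4.56% and 4.39%, and ENZ-INHIB 4.12%, 2.75% and 4.41%. ENZ-NONE exceeded the mean of the other 9 libraries by 20.0 percentage points, the most extreme of the 220 assignments of libraries (two-sided exact permutation test, p = 0.00909, the smallest this design allows). The study chose its myeloid activation list, which holds Zfp36, by comparing ENZ-NONE with the other groups of these samples. This p is therefore not independent of that choice. Nor are the removals, the reassignments within batches and the inhibitor test of Zfp36 given below. Within batch 1 the difference was 13.7 points and within batch 2, with 1 ENZ-NONE library, 32.2 points. None of the sorted classes is known to lack these messages, so the share that free RNA gives was not estimated.

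Btg2 was found in 28.4%, 25.5% and 38.6% of ENZ-NONE cells, 28.8%, 18.4% and 18.3% of DNC-NONE cells, 18.5%, 19.6% and 20.4% of DNC-INHIB cells and 14.3%, 18.6% and 17.0% of ENZ-INHIB cells. The difference from the other 9 libraries was 11.5 points (exact permutation p = 0.0273), although DNC-NONE 1 reached the level of ENZ-NONE 4. Zfp36l1 was found in 32.2%, 29.5% and 35.4% of ENZ-NONE cells whereas the remaining 9 libraries had 21.0% to 30.3%, which is 8.60 points less on average (exact permutation p = 0.0182). The corresponding values for Btg1 were 35.0%, 36.4% and 54.4% against 27.3% to 40.6%, a difference of 11.0 points (exact permutation p = 0.0455) that was 4.22 points in batch 1 and 24.0 points in batch 2. Zfp36l2 differed by -1.17 points (exact permutation p = 0.664) and Zc3h12a by 0.454 points (exact permutation p = 0.0818), from 1.02%, 1.61% and 1.72% of ENZ-NONE cells. The Zfp36l2 share was 32.6 ± 2.86% (SD) in ENZ-INHIB and 35.0 ± 2.32% in ENZ-NONE, within these spreads of each other. The p-values of the 6 genes come from 1 test each and were not adjusted over the list. They moved libraries freely across the 2 batches. With libraries reassigned only within their batch (90 assignments, smallest possible p 0.0222, chosen after seeing the data), the exact permutation p was 0.0222 for Zfp36 and 0.0444 for Zfp36l1, but 0.0667 for both Btg1 and Btg2, which then did not pass. Leaving out each library in turn kept the p of Zfp36 under 0.05 in 12 of 12 removals, that of Zfp36l1 in 10, of Btg2 in 9 and of Btg1 in 3.

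The effect of the inhibitors on these shares was averaged over both ways of dissociation (two-sided exact permutation within each, 400 assignments, smallest possible p 0.005). Zfp36 was lower with inhibitors by 10.8 points (p = 0.045, exact permutation), made up of -0.906 points in the Dounce and -20.7 points in the digested libraries. This passed in 2 of 12 removals of a library (p = 0.03 to 0.09, exact permutation), and did not pass with libraries reassigned within batches (81 assignments, exact permutation p = 0.148). Btg2 was lower by 8.23 points (p = 0.05, exact permutation), which did not pass, with -2.29 and -14.2 points. The differences of Zfp36l1 (-4.96 points, p = 0.09), Btg1 (-6.62 points, p = 0.1), Zc3h12a (-0.371 points, p = 0.08) and Zfp36l2 (0.582 points, p = 0.73) did not pass the same exact permutation test either. For Zfp36l2 the parts had opposite signs, 3.61 points in the Dounce and -2.45 points in the digested libraries. With 3 libraries against 3 an exact test cannot go below p = 0.1, so the parts were not tested. Without DNC-NONE 1 and ENZ-NONE 6 the value of Zfp36 was -7.15 points (p = 0.18, exact permutation).

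**Figure D3:**
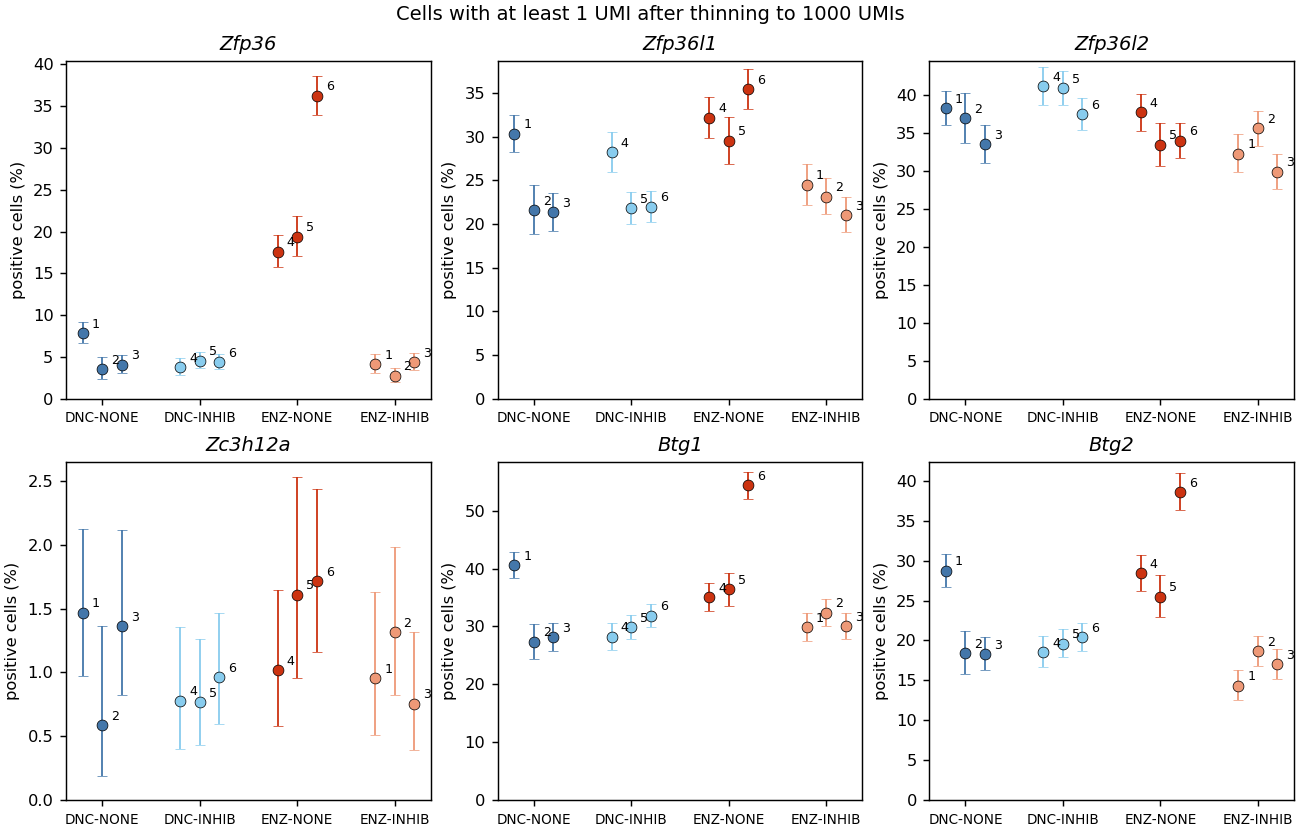
Share of cells with at least 1 UMI of each gene (percent, vertical axis) in every library after thinning to 1000 UMIs, with 95% Clopper-Pearson intervals that cover counting error only. ENZ-NONE libraries hold 17.6% to 36.3% Zfp36-positive cells and the other 9 libraries 2.75% to 7.83%.

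Within brains digested without inhibitors, the members were also counted in cells with and without the early response genes Fos and Dusp1. This is a description with no test. In ENZ-NONE 4, 5 and 6, Zfp36 was detected in 46.2%, 56.9% and 67.9% of the cells with both Fos and Dusp1, and in 13.6%, 14.7% and 22.4% of the cells with neither. The same shares for Btg2 were 66.7%, 53.4% and 63.2% against 23.6%, 20.4% and 27.3%. For Zfp36l2, which had a log2 difference of 0.01 from DNC-NONE, the shares were 56.4%, 39.7% and 40.9% against 35.5%, 32.4% and 30.0%. In ENZ-NONE 4, 5 and 6, Btg1 was detected in 39.7%, 53.4% and 61.3% against 34.1%, 32.6% and 49.8%, and Zfp36l1 in 47.4%, 34.5% and 43.7% against 30.5%, 27.9% and 29.9%. Zc3h12a was detected in 1.72% to 3.02% against 1.10% to 1.28%. Zfp36 and Btg2 were also detected in cells with no Fos or Dusp1 UMI after thinning. The Zfp36 share in those cells lay above the 2.75% to 7.83% of all cells of the other 9 libraries. Whether those cells lacked the early response cannot be told at this depth. Fos encodes a transcription factor of the AP-1 family and is itself a target of tristetraprolin, and Dusp1 encodes the phosphatase that switches off p38.

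Members were also counted per cell. At least 2 of the 6 were detected in 45.9%, 45.7% and 63.3% of ENZ-NONE cells. DNC-NONE cells reached 46.4%, 29.8% and 30.4%, DNC-INHIB cells 34.3%, 34.3% and 33.3%, and ENZ-INHIB cells 27.7%, 31.8% and 27.5%. DNC-NONE 1 thus stood near the first 2 ENZ-NONE libraries. Cells with 0 members made up 18.7%, 20.2% and 11.6% of ENZ-NONE and 17.8% of DNC-NONE 1, and 23.1% to 30.8% of the other 8 libraries.

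**Figure D4:**
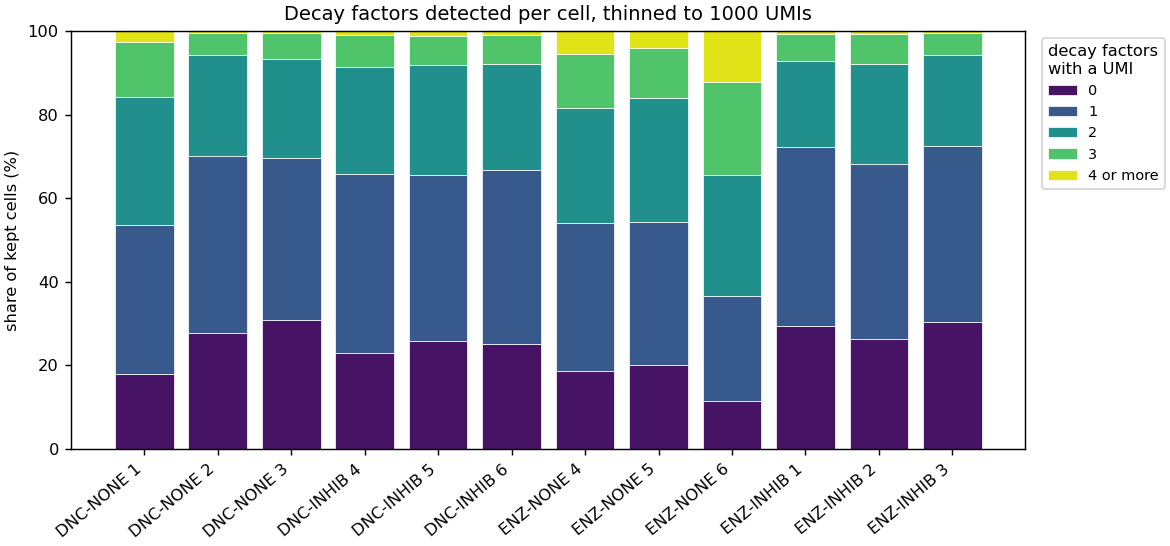
Share of cells (percent, vertical axis) with 0, 1, 2, 3 or at least 4 of the 6 genes detected, stacked for each library after thinning to 1000 UMIs. ENZ-NONE 6 has the fewest cells with 0 members (11.6%), and DNC-NONE 1 (17.8%) resembles ENZ-NONE 4 (18.7%).

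Levels were also taken in the other classes: interferon-responsive-like, border macrophage-like, monocyte-like, neutrophil-like and unnamed cells. The study counts interferon-responsive cells among its microglia. With the ENZ-NONE libraries summed, 120 interferon-responsive-like cells held Zfp36 at 300 CPM. The 28 monocyte-like cells held 574, the 42 border macrophage-like cells 939 and the 39 unnamed cells 1099 CPM, and neutrophil-like cells 2 UMIs. Without ENZ-NONE 6, 75 interferon-responsive-like cells held 219 CPM. The 9 monocyte-like cells then held 577, the 19 border macrophage-like cells 483 and the 19 unnamed cells 788 CPM. The order of these classes therefore depended on ENZ-NONE 6. In the summed other classes (61 to 132 cells per library), Zfp36 was at 529 ± 296 CPM in ENZ-NONE (n = 3, 245 to 836), while the means of the DNC-NONE, DNC-INHIB and ENZ-INHIB groups were 62.1 ± 18.4, 50.2 ± 44.8 and 34.3 ± 11.5 CPM. In microglia-like cells the ENZ-NONE level was 372 ± 212 CPM, against 52.1 ± 29.2, 40.8 ± 4.21 and 37.8 ± 3.37 for these groups. Btg2 in the other classes was at 719 ± 228 CPM in ENZ-NONE against 207 ± 78.4, 175 ± 78.6 and 199 ± 19.6. No test was run within classes.

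The other genes of the decay pathway gave counts that cannot be told from the background at this list size. Of the CCR4-NOT and other deadenylase genes 16 of 17 could be tested, of the decapping and 5′ decay genes 11 of 11, of the exosome genes 13 of 14 and of other RNA-binding decay and stability factors (such as Elavl1, which stabilizes AU-rich messages, and the Roquin gene Rc3h1) 16 of 18. In ENZ-NONE against DNC-NONE 0 genes of these lists were called by edgeR, where 0.465% of all genes were, with median log2 fold changes of -0.07, 0.12, -0.05 and 0.02, and in ENZ-NONE against ENZ-INHIB again 0, where 0.293% were, with medians of -0.01, 0.06, 0.03 and -0.01.

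Some known target messages were called. Of 16 listed targets 9 could be tested. EdgeR called 2 of them higher in ENZ-NONE than in DNC-NONE, where it called 0.465% of all genes. Ccl3, a chemokine, was higher by 3.16 on the log2 scale (SE 0.49, adjusted p = 0.0377) and Nfkbid, an atypical inhibitor of NF-kB, by 1.90 (SE 0.33, adjusted p = 0.00539). Against ENZ-INHIB edgeR called 3, where it called 0.293% of all genes. They were Ccl3 (4.17, adjusted p = 0.0186), Fos (8.34, SE 1.21, adjusted p = 0.0343) and Nfkbid (1.57, adjusted p = 0.0186). The median over the 9 was 2.05 and 1.82 in these comparisons, which describes only targets that passed the low-count filter, since it keeps such genes where they are high. Of the 9 genes of the p38 and MK2 pathway 1 was called, Dusp1, by 6.30 against DNC-NONE (adjusted p = 0.0110) and 6.55 against ENZ-INHIB (adjusted p = 0.0147). The study names Ccl3, Nfkbid, Fos and Dusp1 in its myeloid activation list, which was chosen on these samples. Their direction and calls in ENZ-NONE are therefore not independent of that choice. In DNC-NONE against DNC-INHIB and in ENZ-INHIB against DNC-INHIB 0 genes of any list were called by edgeR.

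**Figure D5:**
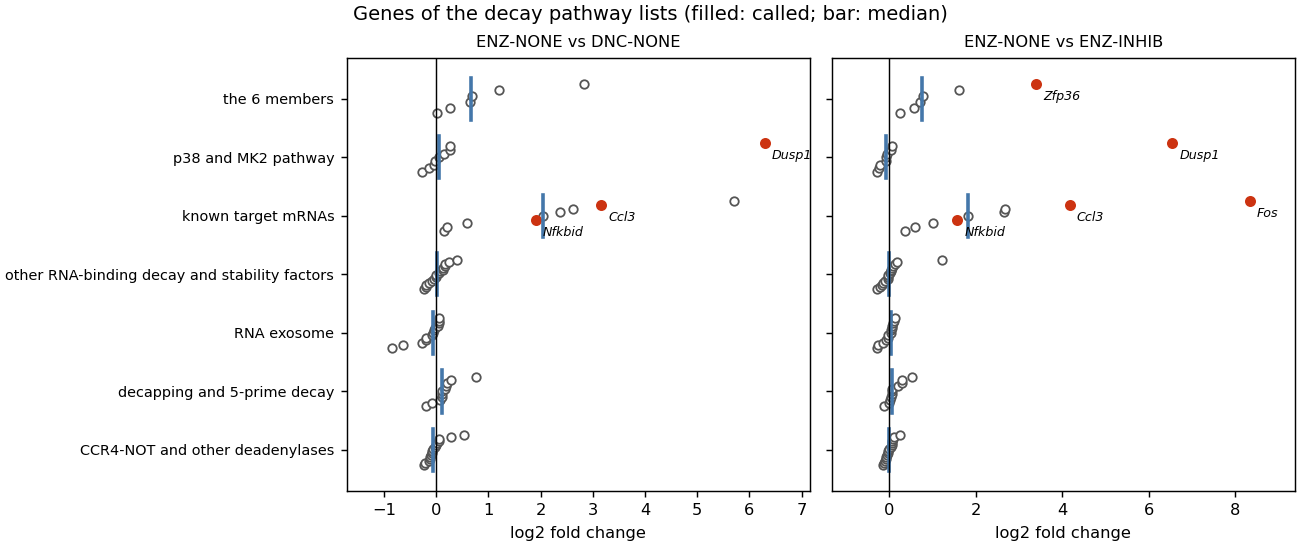
Log2 fold change (one axis per comparison) of the tested genes of each pathway list in ENZ-NONE against DNC-NONE and against ENZ-INHIB, with a point per gene. Genes of the deadenylase, decapping and exosome lists lie between -0.85 and 0.77 against DNC-NONE. The known targets shown are the 9 of 16 that passed the low-count filter, which favors genes that are high in a group.

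The genes most like each member over the 12 libraries, by Pearson r of log2 CPM, are given as a description, since all genes of a library share its depth and preparation. For Zfp36 they were Junb (0.99), Jund (0.98), Jun (0.98), Fos (0.98) and Btg2 (0.97), and for Btg2 Zfp36 (0.97), Junb (0.97), Adamts1 (0.96), Klf2 (0.96) and Fos (0.96). Junb, Egr1, Fos and Ccl2 were also near Zfp36l1 (0.91 to 0.93), together with Btg2 (0.93). Btg1 was nearest to Il1b (0.97), Klf6 (0.95), Gadd45g (0.92), Socs3 (0.92) and Btg2 (0.92). Without ENZ-NONE 6 these fell to 0.86, 0.81, 0.80, 0.80 and 0.84, and the values near Zfp36l1 to 0.84 to 0.88. Those near Zfp36 were then 0.95 to 0.98 and those near Btg2 0.92 to 0.95. Zfp36l2 had none of these genes near it, and its nearest were Mllt10 (0.91), Chchd4 (0.87), Phf23 (0.85), Trim13 (0.85) and Gm3550 (0.84). Its r with the other 5 members was between 0.04 and 0.26, whereas Zfp36, Zfp36l1, Btg1 and Btg2 had values of 0.85 to 0.97 among themselves. Zc3h12a, with few molecules, was nearest to Wsb1 (0.94), Josd2 (0.90), Snx24 (0.90), Samsn1 (0.86) and Zfp384 (0.86).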

How the data were processed

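The deposited files hold UMI counts per gene and cell, which the authors made with bcl2fastq and Cell Ranger 3.0.0 on the mm10 reference (Seurat is named for later steps). Raw counts were used. Cells with at least 1000 UMIs, 500 genes and at most 10% mitochondrial UMIs were kept. Cells with at least 3 markers and 5 UMIs of another brain cell type or of red blood cells were removed (4 cells, 0.0212%), so doublets among myeloid cells stayed in. Cells were clustered with scanpy 1.11.5 without the members and lists. UMIs were summed per library, and all 12 libraries were fitted together with edgeR 4.0.16 (TMM, filterByExpr, quasi-likelihood test, Benjamini-Hochberg over 9882 genes, adjusted p under 0.05 and log2 fold change beyond 0.58 in either direction). The robust prior of the spread was chosen after seeing the data. The fit with 1 prior spread for all genes, DESeq2 1.42.0 and the removal of libraries were alternatives. The edgeR fit was checked on simulated counts with the same spread for every gene and no library that stood apart. That check therefore does not cover the spread seen here. The permutation tests and DESeq2 were not checked in this way. Named genes are the 6 members, the called genes of the pathway lists and the 5 genes most like each member. The members and lists were chosen with earlier results of these data known. Intervals cover counting error only.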

Additional observations from a re-analysis of the deposited data

How the results depend on the processing

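The settings changed whether a member was called more than its direction. Against DNC-NONE, where edgeR called 0 of 6 members in ENZ-NONE, DESeq2 called 3, the fit with 1 prior spread 2, the fit without a low-count filter 2, all deposited barcodes 1, and the fit without DNC-NONE 1 and ENZ-NONE 6 called 3. Against ENZ-INHIB and against DNC-INHIB, where 1 was called, these gave 3 (DESeq2), 3 (1 prior spread), 2 (no low-count filter) and 3 (without both libraries) in each. In the interaction, with 0 called, DESeq2 and 1 prior spread gave 1 each and the fit without both libraries 3. Leaving out each library in turn gave 0 to 1 members against DNC-NONE, 0 to 3 against ENZ-INHIB, 0 to 3 against DNC-INHIB and 0 to 1 in the interaction. The 3 came without DNC-NONE 1. The call of Zfp36 against ENZ-INHIB was lost on removal of DNC-NONE 2 or 3 or of any 1 inhibitor library. That against DNC-INHIB was lost on removal of any 1 DNC-INHIB library. The log2 fold change in these removals stayed at 3.33 to 3.48 and at 3.14 to 3.36. The cause of the changes in the calls was not tested.

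For the share of positive cells in ENZ-NONE against the other 9 libraries, leaving out each library gave 7.08 to 10.0 points for Zfp36l1, 0.320 to 0.669 for Zc3h12a, 4.81 to 14.5 for Btg1 and 7.62 to 14.2 for Btg2, with exact permutation p-values under 0.05 in 10, 2, 3 and 9 of 12 removals. For Zfp36 all 12 stayed below it (14.1 to 23.5 points). Without thinning, the value for Btg1 was 11.6 (exact permutation p = 0.0909). With libraries reassigned within batches, the 11.0 points of Btg1 and the 11.5 of Btg2 no longer passed (exact permutation p = 0.0667 each), nor did the -10.8 points of Zfp36 for the inhibitors (p = 0.148). For the inhibitors against none, leaving out each library gave -12.5 to -7.82 points for Zfp36, -0.170 to 1.25 for Zfp36l2 (with -0.0938 without DNC-NONE 3), -0.509 to -0.289 for Zc3h12a and -9.57 to -6.29 for Btg2, with p-values under 0.05 in 2, 0, 1 and 2 of 12 removals (for Btg2 without DNC-NONE 2 or 3, exact permutation p = 0.04), and without both libraries Zfp36 was at -7.15. Zfp36l1 passed at -10.5 with 2000 UMIs per cell (exact permutation p = 0.005) and at -4.00 with all barcodes of at least 500 UMIs (p = 0.035, exact permutation), where Btg2 also passed at -6.05 (p = 0.015) and Zfp36l2 was at -0.645.

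Fold changes that turned were not called in any setting, and the largest of them was that of Zfp36 in ENZ-INHIB against DNC-NONE (-0.57). For Zfp36l2 in ENZ-NONE against DNC-NONE the log2 fold change came to -0.021 with all barcodes and -0.0010 in microglia-like cells, and ran from -0.027 to 0.059 over the removal of each library. In DNC-NONE against DNC-INHIB the ranges were -0.18 to 0.64 for Zfp36, -0.20 to 0.21 for Zfp36l1, -0.14 to 0.24 for Btg1 and -0.16 to 0.37 for Btg2, in each case with the lowest value without DNC-NONE 1, and without both libraries the values were -0.18, -0.19, -0.14 and -0.16. In ENZ-INHIB against DNC-NONE the ranges were -0.80 to 0.030 for Zfp36, -0.26 to 0.15 for Zfp36l1 and -0.16 to 0.23 for Btg1, highest without DNC-NONE 1, and without both libraries 0.028, 0.15 and 0.22. In ENZ-INHIB against DNC-INHIB the ranges were -0.12 to 0.092 for Zfp36l1 and -0.20 to 0.22 for Zc3h12a, which came to -0.049 in microglia-like cells and -0.0017 without both libraries.

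Same-numbered samples did not all deviate together (correlations of 0.137, -0.00634 and 0.175 in ENZ-NONE with DNC-INHIB, and -0.0997, -0.0578 and -0.0148 in ENZ-INHIB with DNC-NONE), and the labels do not tie the numbers to a litter, day or batch, so they were not taken as pairs. Numbers 4 and 6 of the first pair of groups and 1 and 3 of the second also shared a batch. With the replicate block, 1 member was called in ENZ-NONE against DNC-INHIB (Zfp36l1, with Zfp36 at 3.16 and an adjusted p of 0.270) and 0 in ENZ-INHIB against DNC-NONE. The same 6 libraries without the block also gave Zfp36l1 and 0. Over all genes the block moved the calls from 59 to 104 and from 19 to 90.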

Other observations

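In border macrophage-like cells, the macrophages of the meninges and vessels, the 42 cells of the 3 ENZ-NONE libraries together held Zfp36 at 939 CPM (95% exact Poisson interval 723 to 1199), Zfp36l1 at 910 CPM (697 to 1166) and Btg2 at 866 CPM (659 to 1116). Of the 64 Zfp36 UMIs, 50 came from ENZ-NONE 6 (1276 CPM), against 691 CPM in ENZ-NONE 4 and 98.2 CPM (1 UMI) in ENZ-NONE 5. Without ENZ-NONE 6 the 19 remaining cells held 483, 862 and 655 CPM of the 3 genes. The 78 cells of DNC-NONE held 48.7 CPM (17.9 to 106), 470 CPM (357 to 608) and 187 CPM (118 to 280) of these genes. In monocyte-like cells, 28 cells of ENZ-NONE held Zfp36 at 574 CPM (393 to 810) against 81.9 CPM (32.9 to 169) in 45 cells of DNC-NONE, while Zfp36l1 was seen with 3 UMIs and 2 UMIs. These intervals cover counting error only, the libraries of a group were summed, and no test was run.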
